A study of Mus musculus with 25 samples.

Results

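The miR-29 family was followed in small extracellular vesicles (sEVs) isolated from mouse liver at 5 ages. The members are the 6 listed mature arms in a miRNA count table of 1493 entries: the 5p arms mmu-miR-29a-5p, mmu-miR-29c-5p and mmu-miR-29b-2-5p, and the 3p arms mmu-miR-29b-3p, mmu-miR-29a-3p and mmu-miR-29c-3p (written below without the species prefix mmu). They were chosen by name, as a set and by genomic pair (miR-29a with miR-29b-1, miR-29c with miR-29b-2). All 6 were in the table and all 6 passed the filter on low counts, which left 391 entries for testing. The table also lists miR-29b-1-5p, which is no member and is described only where it separates the loci.

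The mice were wild-type C57BL/6J animals given no treatment in the labels. They were 1 week, 6 weeks, 6 months, 12 months or 14 months old, with 5 mice and 5 libraries at each age, 25 in all. The labels say that males and females were equally represented but do not give the sex of each mouse. Vesicles were released from frozen liver with an enzyme kit for tumour dissociation and collected by ultracentrifugation, and the RNA was made into QIAseq miRNA libraries. The batch field of the labels repeats the age, so age and any difference in handling between ages cannot be told apart. Mouse numbers identify separate animals, and the p-values measure the spread between these mice.

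A microRNA is cut from a hairpin precursor as a duplex, and usually the strand that is loaded into Argonaute accumulates while its partner is degraded. In the miR-29 family the 3p strand is the abundant one. miR-29 is known as a repressor of extracellular matrix genes, among them collagens, fibrillin and elastin, and of DNA methyltransferases. In liver it is known from hepatocytes and from hepatic stellate cells, where profibrotic signalling through TGF-beta lowers it and collagen output then increases. The precursors lie as 2 neighbouring pairs, so the members of a pair can come from a shared primary transcript.

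The mature sequences are shown because they decide which rows of the table can be told apart. They are from RefSeq on GRCm38.p6, in the 5′ to 3′ direction, with the seed (bases 2 to 8, the stretch that pairs with target mRNAs) in capitals. All 7 names were matched, and every length equalled the length given in the count table.
miR-29a-3p: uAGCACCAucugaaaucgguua
miR-29c-3p: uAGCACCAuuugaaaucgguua
miR-29b-3p: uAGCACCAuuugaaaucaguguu
miR-29a-5p: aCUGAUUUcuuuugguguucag
miR-29c-5p: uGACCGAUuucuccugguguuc
miR-29b-2-5p: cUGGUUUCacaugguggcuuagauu
miR-29b-1-5p: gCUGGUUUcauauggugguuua
The 3 abundant arms share the seed AGCACCA, which no other mature name among 1679 in the RefSeq table carried. The 5p arms had a different seed each. From the 5′ end, the change from miR-29a-3p to miR-29c-3p is C10U alone. The changes from miR-29a-3p to miR-29b-3p over the first 22 bases are C10U, G18A, U21G and A22U.

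The first pair lies on the minus strand of chromosome 6. Mature miR-29a-3p is at chr6:31062673-31062694 and miR-29a-5p at chr6:31062711-31062732, and 275 bases separate the hairpins Mir29a and Mir29b-1. The second pair lies on the plus strand of chromosome 1, with miR-29b-2-5p at chr1:195037050-195037074, miR-29c-5p at chr1:195037562-195037583 and miR-29c-3p at chr1:195037600-195037621. The hairpins Mir29b-2 and Mir29c are 426 bases apart. In the GENCODE M21 annotation they lie within an exon of the long non-coding gene A330023F24Rik, in a retained-intron transcript. On the opposite strand they lie over the last-exon UTR of Cd46. Mir29a overlaps no other annotated gene, and Mir29b-1 overlaps the lincRNA Gm27019 by 2 bases. Mature miR-29b-3p is encoded at chr6:31063025-31063047 and at chr1:195037091-195037113 with an identical sequence, so its counts cannot be assigned to a pair. The 5p arms are the readouts that separate the loci.

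The rows for miR-29a-3p and miR-29c-3p held almost the same counts. The miR-29c-3p count exceeded the miR-29a-3p count in 24 of 25 libraries, and the difference ran from -0.0645% to 1.26% of the miR-29a-3p count, with a median of 0.639%. Their summed counts at 14 months were 199723 and 201235. How reads that match both arms were counted is not given in the sources used here. The 3p rows of miR-29a and miR-29c are therefore given as a single result, with values for miR-29a-3p, and no statement is made on how much of it came from either locus.

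Library totals ran from 641579 to 6888928 counts. The 1-week libraries had 2095925 to 6888928 counts and the 6-week libraries the fewest, 641579 to 1738208. The older mice had 1052751 to 2485335 (6 months), 839642 to 3778798 (12 months) and 1543907 to 3989776 (14 months). Levels are given as counts per 1000000 (CPM), with library sizes scaled by TMM, a trimmed-mean normalization. The floor of 3 counts corresponded to 0.283 to 4.89 CPM depending on the library, and such floors cover counting error only, since whether reads or molecular identifiers were counted is not given. A member is called changed where the adjusted p is under 0.05 in edgeR's quasi-likelihood test, with Benjamini-Hochberg adjustment over all 391 entries. Fold changes are on the log2 scale with their standard errors, and each age has n = 5.

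The level of miR-29b-3p, the arm that both pairs encode, was lowest at 1 week and highest at 14 months. At 1 week the 5 libraries held 80.0, 40.9, 97.1, 48.9 and 111 CPM. At 6 weeks they held 949, 930.0, 1187, 917 and 1612 CPM. No library of 1 week came near those of 6 weeks. The 6-month libraries held 2246, 2253, 2245, 2494 and 2821 CPM, close together and all above the 6-week range. At 12 months the values were 2276, 2725, 3639, 4358 and 4220.2 CPM, and at 14 months 2878, 3070.1, 3977, 4050.0 and 5777 CPM. These last 2 ages overlapped each other, while every 14-month library exceeded every 6-month library. The mean rose from 75.6 ± 30.2 CPM (SD, n = 5) to 1119 ± 297 at 6 weeks, and was 2412 ± 252, 3444 ± 916 and 3950.4 ± 1148 CPM at the later ages.

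miR-29a-3p, with the near-identical row of miR-29c-3p, was the most abundant of the family. At 1 week its 5 libraries held 757, 282, 600.2, 471 and 767 CPM. At 6 weeks they held 5238, 5045, 6240.5, 6605 and 11377 CPM, the last from mouse 10, which stood above the rest of its age. The 6-month values were 10208, 10181, 10996, 17519.6 and 13096 CPM, so that mouse 10 lay within the 6-month range. At 12 months the libraries held 11649, 10996, 15832, 25963 and 23645 CPM, and at 14 months 10525, 13083, 18978, 26072 and 24939 CPM. The spread widened with the level, and the 3 oldest ages overlapped. The mean was 575 ± 205 CPM in the 1-week mice and 6901 ± 2587 in the 6-week mice (SD, n = 5). In the older mice it was 12400.3 ± 3098, 17617 ± 6867 and 18719 ± 6923 CPM, in order of age.

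Among all entries ordered by mean CPM, miR-29a-3p stood at rank 53 at 1 week and 19 at 6 weeks, then 13, 9 and 10 at 6, 12 and 14 months. miR-29b-3p moved from rank 139 at 1 week to 44, 31, 29 and 26. Counting the rows of miR-29a-3p and miR-29c-3p once, the family took 0.102 ± 0.0386% of a library's counts at 1 week (SD, n = 5). In the 6-week mice the share was 0.801 ± 0.277%. In the 3 older groups it was 1.34 ± 0.221%, 1.84 ± 0.466% and 1.84 ± 0.512%. These shares are of raw counts and do not rest on TMM. In RNA from bulk vesicles, fewer vesicles from a cell type and less miR-29 per vesicle cannot be told apart.

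The 5p arms were far scarcer: at the mean log2 ratio of an age, 98.6 to 2510 counts of miR-29a-3p or miR-29c-3p stood against each count of its partner strand. The 2510 is for miR-29a at 1 week, where only 2 of 5 libraries had a count of miR-29a-5p. It therefore depends on the 0.5 added to counts before the ratio was taken. miR-29c-5p, the partner strand of miR-29c-3p, held 2.49, 2.41, 1.29, 2.43 and 3.20 CPM at 1 week, from 5 to 34 counts per library. At 6 weeks its values were 65.6, 88.1, 70.7, 58.4 and 54.7 CPM. The later ages overlapped 6 weeks and reached beyond its range: 56.6 to 105 CPM at 6 months, 53.9 to 86.2 at 12 months and 41.0 to 99.3 at 14 months. Means from 6 weeks on were 67.5 ± 13.1, 75.6 ± 19.5, 69.0 ± 13.3 and 69.0 ± 22.5 CPM, against 2.36 ± 0.687 CPM at 1 week (SD, n = 5).

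miR-29a-5p, the partner strand of miR-29a-3p, was at or near the counting limit at 1 week, with 1, 0, 0, 0 and 5 counts in the 5 libraries. At 6 weeks it had 6, 2, 7, 7 and 18 counts, or 8.37, 3.26, 6.78, 6.20 and 10.7 CPM. All 6-week libraries were above all 1-week libraries. Later means were 9.49 ± 3.14 CPM at 6 months, 8.33 ± 2.57 at 12 months and 9.43 ± 5.29 at 14 months, against 7.06 ± 2.75 CPM at 6 weeks (SD, n = 5). miR-29b-2-5p, from the Mir29b-2 hairpin on chromosome 1, had 1, 3, 0, 0 and 14 counts at 1 week and 5, 1, 2, 2 and 5 counts at 6 weeks. Its means were 0.470 ± 0.577, 3.06 ± 2.25, 4.65 ± 4.45, 6.30 ± 2.62 and 6.21 ± 2.39 CPM over the 5 ages, and 1 of the 6-month libraries had 0 counts. The adult ages of these scarce arms overlapped throughout.

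**Figure D1:**
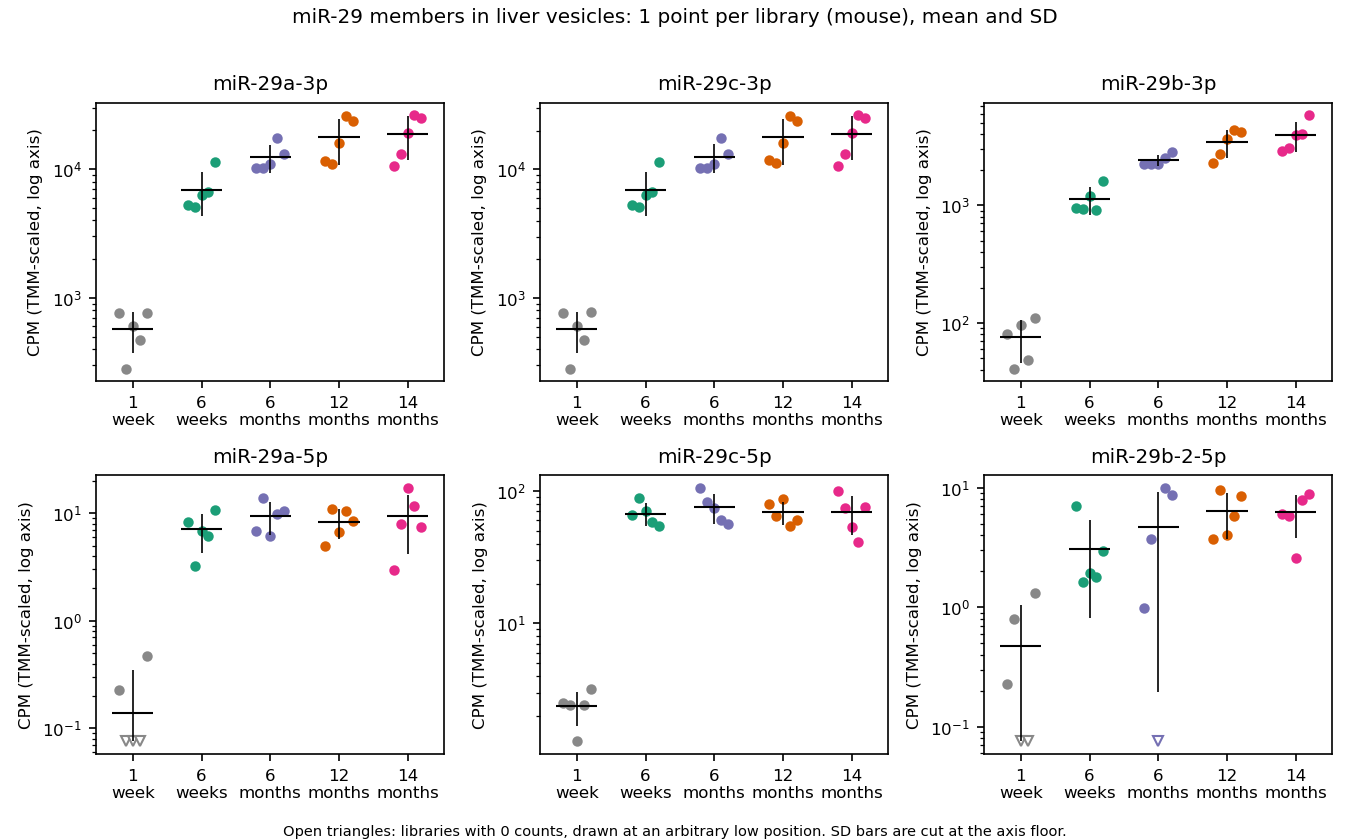
Level of each of the 6 miR-29 members by age, in TMM-scaled CPM on a log axis that differs between panels. Points are libraries (1 mouse each), horizontal bars the means and vertical bars the SD (n = 5). All 6 panels step up between 1 week and 6 weeks. After 6 weeks the 3 upper panels (3p arms) climb further, while in the 3 lower panels (5p arms) the later ages overlap 6 weeks but also reach beyond its range, with means of miR-29b-2-5p from 3.06 to 6.30 CPM.

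The first comparison asks what differed between the suckling liver at 1 week and the young adult liver at 6 weeks. All 6 members rose. Over all 5 ages together, edgeR's F test also called all 6, as it did 75.4% of the tested entries. miR-29b-3p was higher by 3.88 ± 0.27 on the log2 scale (SE), with an adjusted p of 8.67e-12 in edgeR's quasi-likelihood test. miR-29a-3p was higher by 3.58 ± 0.33 (adjusted p 6.4e-10). The largest rises were in partner strands: miR-29a-5p by 4.83 ± 0.58 (adjusted p 5.82e-08) and miR-29c-5p by 4.76 ± 0.29 (adjusted p 7.7e-13). miR-29b-2-5p was higher by 2.26 ± 0.80 (adjusted p 0.0133).

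Higher levels at 6 weeks were common: 35% of the 391 tested entries were called higher and 36.8% lower. For every member, each 6-week library also exceeded each 1-week library, which held for 28.6% of tested entries. The median log2 fold change was 3.73 for the members and 0.12 for all tested entries. The member calls thus stand in a comparison in which most entries differed. Mouse 27 held 5 of the 6 counts of miR-29a-5p and 14 of the 18 counts of miR-29b-2-5p at 1 week. Without it the log2 fold changes of these arms were 5.83 and 3.21. The call for miR-29b-2-5p was lost without mouse 6 (1.87, adjusted p 0.0572) and with library totals alone as the scaling (1.64, adjusted p 0.0669).

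The partner strand of the other chromosome 6 hairpin, miR-29b-1-5p, had 0 counts in all 5 libraries at 1 week. Summed over the 5 libraries it had 8 counts in the 6-week group and 14, 15 and 22 counts in the 3 older groups. With TMM scaling, its summed level stood 13.4-fold above a floor of 3 counts over the 1-week group at 6 weeks, and 19.2-fold at 14 months. These are no lower bounds, since the counts of the later ages, 8 at 6 weeks, carry a counting error of their own. Mean CPM of the partner strand was higher at 6 weeks than at 1 week for all 4 hairpins. At 6 weeks miR-29b-1-5p and miR-29b-2-5p were still sparse, with 8 and 15 summed counts. miR-29b-2-5p had 18 summed counts at 1 week, in larger libraries.

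Scaling moved the whole distribution of this comparison. Relative to TMM, the median log2 fold change of all tested entries shifted by -0.46 with RLE factors and by -0.66 with library totals alone. The split of calls went from 137 higher and 144 lower to 107 and 165 with RLE factors, and to 88 and 178 with library totals. The 5 members other than miR-29b-2-5p were called higher under every scaling; with library totals miR-29b-3p was higher by 3.23 and miR-29a-3p by 2.93. Between adult ages the shift was under 0.1 with RLE factors. Library totals moved the median by -0.12 for 6 months, -0.15 for 12 months and -0.27 for 14 months against 6 weeks. The splits went from 4 higher and 3 lower to 1 and 2, from 15 and 7 to 9 and 11, and from 13 and 2 to 6 and 5.

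Marker miRNAs of other cell types also differed between these ages, as did most tested entries (35% called higher and 36.8% lower). The summed level of 5 hepatocyte markers, led by miR-122-5p and miR-192-5p, was 399945 to 572121 CPM at 1 week and 668246 to 756076 CPM at 6 weeks, and all 5 were called higher. Of 4 erythroid markers (miR-451a and others), 3 fell, and the list's sum went from 308 to 819 CPM down to 165 to 485 CPM. Leukocyte markers such as miR-142a-3p and miR-223-3p summed to 4964 to 5589 CPM at 1 week and 2162 to 2837 CPM at 6 weeks, and 4 of 5 fell. All 5 epithelial markers of the miR-200 family fell, from 846 to 1367 CPM down to 354 to 463 CPM. Of 7 stellate and smooth muscle markers, 3 were higher, with sums of 4932 to 7509 CPM and then 7458 to 9013 CPM. Of 2 endothelial markers, 1 was higher, with sums of 21071 to 38902 CPM and then 44626 to 53622 CPM. Both muscle markers tested fell, from 58.0 to 1122 CPM for the sum of 3 listed down to 1.63 to 7.14 CPM. No listed marker was at 0 in all libraries of an age, and the part of these differences in the miR-29 values was not tested.

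The remaining comparisons ask what changed during adult life. Over the 4 adult ages, miR-29b-3p changed with an adjusted p of 0.000154 and miR-29a-3p with an adjusted p of 0.0208 in edgeR's F test. Only 2.56% of tested entries (10 of 391, among them the 3 rows of 3p arms) were called in that test. The call for miR-29a-3p was lost with no filter on low counts (adjusted p 0.15), with the library total in the model (0.237) and without mouse 6 of the 6-week group (0.0507), whereas miR-29b-3p stayed called in all of these. The 5p arms were not called: adjusted p was 0.929 for miR-29a-5p, 0.958 for miR-29c-5p and 0.736 for miR-29b-2-5p.

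From 6 weeks to 6 months, miR-29b-3p rose by 1.11 ± 0.25 on the log2 scale (adjusted p 0.0162, edgeR), higher in 5 of 5 mice than in any 6-week mouse. In this comparison 1.02% of tested entries were called higher, and 2.81% had all 6-month libraries above all 6-week libraries. The call for miR-29b-3p was lost without mouse 14 (adjusted p 0.061) or mouse 15 (0.0556), with log2 fold changes of 1.06 and 1.04. miR-29a-3p did not pass (0.85 ± 0.30, adjusted p 0.230), and 2 of the 5 mice at 6 months exceeded all at 6 weeks. It passed without mouse 10, the highest library at 6 weeks (1.10, adjusted p 0.0494). The 5p arms gave 0.38 for miR-29a-5p, 0.17 for miR-29c-5p and 0.71 for miR-29b-2-5p, none passing (adjusted p 0.913 to 0.941).

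Against 6 weeks, the 3p arms were called higher at 12 and at 14 months. miR-29b-3p rose by 1.62 ± 0.25 to 12 months (adjusted p 0.000133) and by 1.82 ± 0.25 to 14 months (adjusted p 2.085e-05), without overlap with 6 weeks in either case. miR-29a-3p rose by 1.35 ± 0.30 to 12 months (adjusted p 0.00752) and by 1.44 ± 0.30 to 14 months (adjusted p 0.00443). Of its 5 libraries at each of these ages, 4 exceeded every 6-week library. The call at 12 months was lost when no filter on low counts was used (adjusted p 0.0684). Entries called higher made up 3.84% of those tested at 12 months and 3.32% at 14 months, and 5.63% and 5.88% had all libraries above those of 6 weeks. These comparisons share the 6-week mice.

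The partner strands gave no call in the same comparisons, and their intervals differ in width. miR-29c-5p at 14 months stood at 0.04 ± 0.24 on the log2 scale relative to 6 weeks (adjusted p 0.919), with a 95% interval from -0.47 to 0.54. For miR-29a-5p the difference was 0.39 ± 0.45 (adjusted p 0.617), with an interval from -0.54 to 1.32. For miR-29b-2-5p it was 1.06 ± 0.71 (adjusted p 0.383), with an interval from -0.40 to 2.53. The intervals of the 3p arms were 0.82 to 2.06 for miR-29a-3p and 1.31 to 2.33 for miR-29b-3p. That of miR-29c-5p lies below both, while those of miR-29a-5p and miR-29b-2-5p overlap both. At 12 months the 5p arms gave 0.04, 0.21 and 1.10 in the order above. With the library total in the model, the 14-month difference was 0.65 ± 0.23 for miR-29a-3p and 1.20 ± 0.20 for miR-29b-3p. It was then 0.20 ± 0.29 for miR-29c-5p, so the gap between miR-29a-3p and its 5p arms depends on the model.

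**Figure D2:**
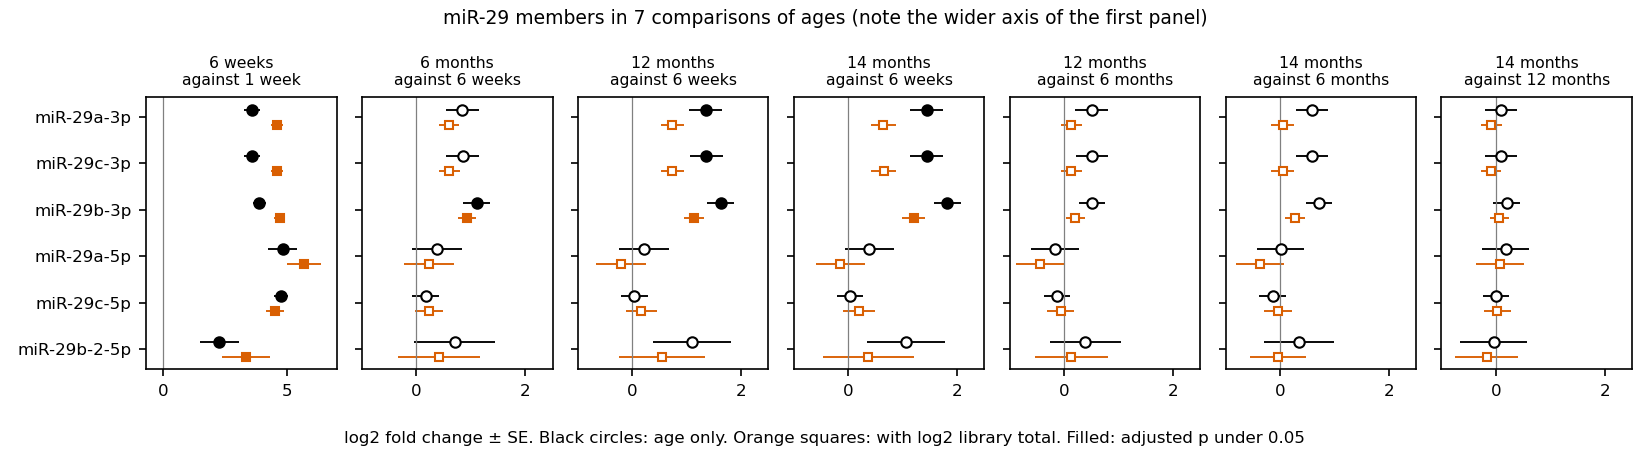
Log2 fold change and SE of the 6 members in 7 comparisons of ages, with age alone in the model (black circles) and with log2 library total added (orange squares). Filled symbols have an adjusted p under 0.05, and the first panel has a wider axis. All members are filled at 6 weeks against 1 week, and miR-29b-3p alone stays filled in the 3 comparisons with 6 weeks when the library total is in the model.

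Neighbouring ages after 6 months were not separated. From 6 to 12 months the log2 fold change was 0.51 ± 0.24 for miR-29b-3p (adjusted p 0.652) and 0.51 ± 0.30 for miR-29a-3p (adjusted p 0.712). From 12 to 14 months they were 0.20 ± 0.24 and 0.09 ± 0.30, with an adjusted p of 1 for each. From 6 to 14 months miR-29b-3p was at 0.71 ± 0.24 (adjusted p 0.594), and all 5 libraries of 14 months lay above all of 6 months, as for 1.02% of tested entries. No entry was called in these 3 comparisons (0% of those tested) by edgeR or DESeq2, and 28, 8 and 30 entries had an unadjusted p under 0.05 in edgeR. By level, the order for both 3p arms was 1 week, 6 weeks, 6 months, 12 months and 14 months. The neighbours from 6 months on did not differ beyond their spread. For miR-29c-5p and miR-29a-5p only 1 week stood apart.

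The level of the 3p arms moved with the number of counts in a library. Over the 20 adult libraries, log2 CPM of miR-29a-3p correlated with log2 library total with a Pearson r of 0.897 and a Spearman rho of 0.871 (permutation p 1e-05 for each, the smallest that 100000 resamples can give; adjusted over the 6 members, 2e-05 and 3e-05). For miR-29b-3p r was 0.822 (adjusted permutation p 2e-05) and rho was 0.839 (adjusted p 4e-05). Totals and ages go together among adults, so the relation was also taken on deviations from the age means. There r was 0.870 for miR-29a-3p and 0.843 for miR-29b-3p, so the relation held within ages. Without the 2 libraries farthest from the median total (mouse 20 at 12 months and mouse 25 at 14 months), r was 0.875 and 0.774.

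The 5p arms gave smaller Pearson coefficients, none of which passed over the 20 adult libraries with TMM scaling. miR-29c-5p had an r of -0.359 pooled (adjusted permutation p 0.119) and -0.435 within ages (adjusted p 0.0747). miR-29a-5p had 0.404 (adjusted p 0.0918) and miR-29b-2-5p 0.475 (adjusted p 0.0502) over the 20 adult libraries. The test passed for miR-29a-5p without the 2 farthest libraries (r 0.507, adjusted permutation p 0.0477) and for miR-29c-5p with library totals alone as the scaling (r -0.594, adjusted permutation p 0.00877). Spearman's rho was -0.397, 0.483 and 0.523 for these arms in the same order, with adjusted permutation p of 0.0836, 0.0386 and 0.0284, so the rank test passed for miR-29a-5p and miR-29b-2-5p. Within ages rho was -0.517 for miR-29c-5p (adjusted permutation p 0.0309), 0.414 for miR-29a-5p (0.0861) and 0.286 for miR-29b-2-5p (0.221). CPM is already divided by the library size, so the deeper adult libraries held a larger proportion of miR-29a-3p and miR-29b-3p. The 1-week libraries stood outside this relation: they had totals in the upper range and the lowest miR-29.

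**Figure D3:**
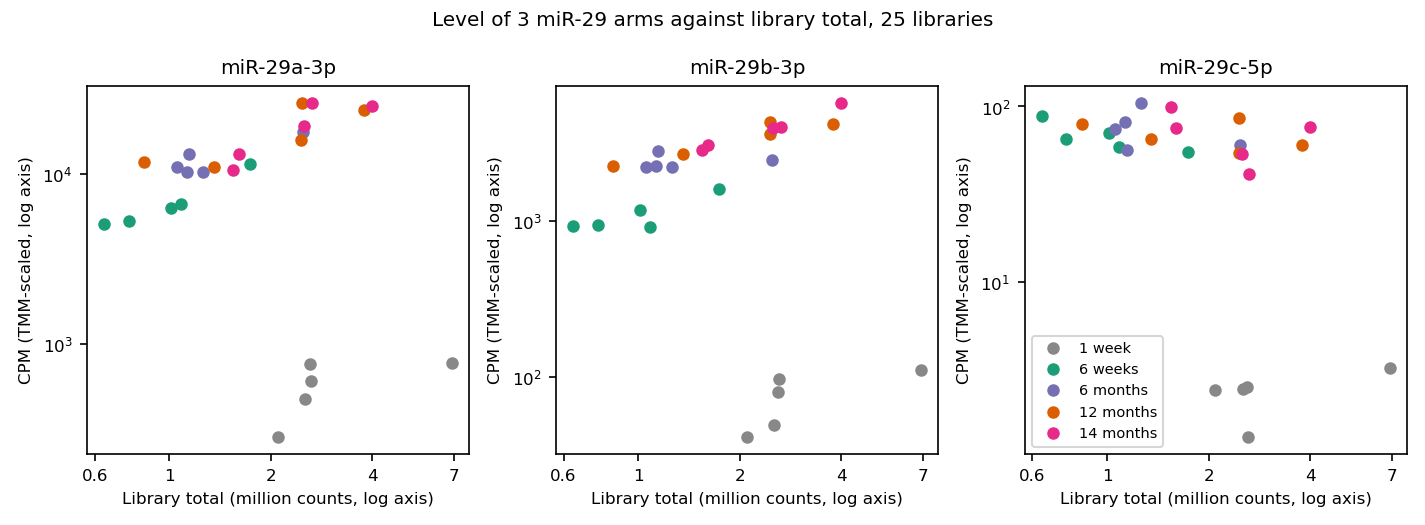
Level of miR-29b-3p, miR-29a-3p and miR-29c-5p (the middle, left and right panels) in TMM-scaled CPM against library total in units of 1000000 counts, both on log axes. Points are the 25 libraries, coloured by age. Among adult libraries the first 2 panels slope upward (r of 0.897 for miR-29a-3p and 0.822 for miR-29b-3p over 20 libraries), whereas miR-29c-5p does not, and the 1-week libraries lie apart at the bottom.

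With log2 library total as a covariate in the edgeR fit, miR-29b-3p kept its calls against 6 weeks: 0.93 ± 0.17 at 6 months (adjusted p 0.00147), 1.13 ± 0.19 at 12 months (0.000323) and 1.20 ± 0.20 at 14 months (0.000713). For miR-29a-3p the differences were 0.73 ± 0.21 at 12 months (adjusted p 0.0565) and 0.65 ± 0.23 at 14 months (adjusted p 0.219), no longer called. All 6 members stayed called at 6 weeks against 1 week, at 4.59 for miR-29a-3p and 4.70 for miR-29b-3p. In that fit the level changed per doubling of the total by 0.64 on the log2 scale for miR-29a-3p (adjusted p 0.000214) and by 0.49 for miR-29b-3p (adjusted p 0.00102). Such a slope was called for 12.3% of tested entries. The part of the library total in the age differences cannot be told apart from age beyond these values.

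Ratios within a library compare members without any scaling between libraries. They were taken as log2 of counts plus 0.5 and tested by an exact two-sided permutation test of 5 against 5 libraries. The smallest p this allows is 0.00794, and p-values were adjusted over 12 tests (6 ratios in 2 comparisons). None of the 12 passed after adjustment with 0.5 added. A single test at that smallest p could not pass over 12 tests, so the lack of a pass does not show that the ratios were unchanged.

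The ratio of miR-29b-3p to miR-29a-3p was -2.94 ± 0.29 at 1 week, -2.59 ± 0.22 at 6 weeks and -2.20 ± 0.30 at 14 months (log2, SD, n = 5), which is 0.130, 0.166 and 0.217 counts of miR-29b-3p per count of miR-29a-3p. The differences were 0.347 between 1 week and 6 weeks (exact p 0.0794, adjusted 0.119) and 0.390 between 6 weeks and 14 months (exact p 0.0556, adjusted 0.0952). The ratio of miR-29a-3p to miR-29a-5p was 11.3 at 1 week, 9.83 at 6 weeks and 11.0 at 14 months. Its change was -1.46 in the first comparison (exact p 0.00794, adjusted 0.0794) and 1.19 in the second (exact p 0.0159, adjusted 0.0794). For miR-29c-3p to miR-29c-5p the ratio was 7.82, 6.62 and 8.07, and the changes were -1.20 and 1.45 (exact p 0.0397 and adjusted 0.0794 for each). This ratio was lowest in the smallest library at every age but 6 months. It was highest in the largest library only at 6 weeks (mouse 10, 7.7) and at 6 months (mouse 14, 8.2). At 6 weeks its order was that of the library totals, from 5.84 in mouse 7 up to mouse 10. At 12 and 14 months the smallest libraries stood at 7.21 (mouse 16) and 6.74 (mouse 21). The largest stood at 8.61 (mouse 20) and 8.37 (mouse 25). The 6-week libraries had the fewest counts, and the part of the library total in these ratios was not tested. With 3 of the 1-week libraries at 0 counts of miR-29a-5p, the first change of miR-29a-3p to miR-29a-5p depends on the number added. It was -0.873 with 1 added (adjusted exact p 0.0476) and 0.319 with 5 added (adjusted exact p 0.524), so no direction is given for it. The second change passed with 1 added (1.25, adjusted exact p 0.0476) and with 5 added (1.54, adjusted exact p 0.0317). At 6 weeks miR-29a-5p had only 2 to 18 counts per library. An added 5 is large beside these, so that ratio also varies with the library total and its pass adds no weight.

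Summed over 5 libraries, miR-29c-5p amounted to 4.06 counts per 1000 of miR-29c-3p at 1 week and 8.29 at 6 weeks. From 6 months on the proportion was 5.55, 3.47 and 3.30 per 1000. miR-29a-5p amounted to 0.366, 1.00, 0.727, 0.440 and 0.496 per 1000 of miR-29a-3p. The 1-week value rests on 6 counts, 5 of them from mouse 27; without that mouse 1 count stood against 8270 (0.121 per 1000), and the median over libraries was 0. The 3p rows hold nearly the same counts, so these proportions cannot be assigned to a locus. Each 5p arm comes from 1 hairpin, but its level does not measure the output of a pair. On chromosome 1 at 12 months, miR-29c-5p had a mean of 69.0 CPM and miR-29b-2-5p 6.30 CPM. The chromosome 6 arm miR-29a-5p had 8.33 CPM, so which pair had the higher 5p level depended on the arm compared. miR-29c-5p was more abundant than miR-29a-5p at every age. It had 11.1, 9.29 and 7.80 counts per count of miR-29a-5p at 1 week, 6 weeks and 14 months. That ratio differed by -0.261 on the log2 scale from 1 week to 6 weeks (exact p 0.595) and by -0.252 from 6 weeks to 14 months (exact p 0.706). The sign and size of the first, and the 11.1 at 1 week, depend on the number added, since miR-29a-5p was at 0 in 3 libraries of 1 week. The first difference was 0.267 with 1 added (adjusted exact p 0.641) and 1.08 with 5 added (adjusted exact p 0.0317), so no direction is given for it.

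**Figure D4:**
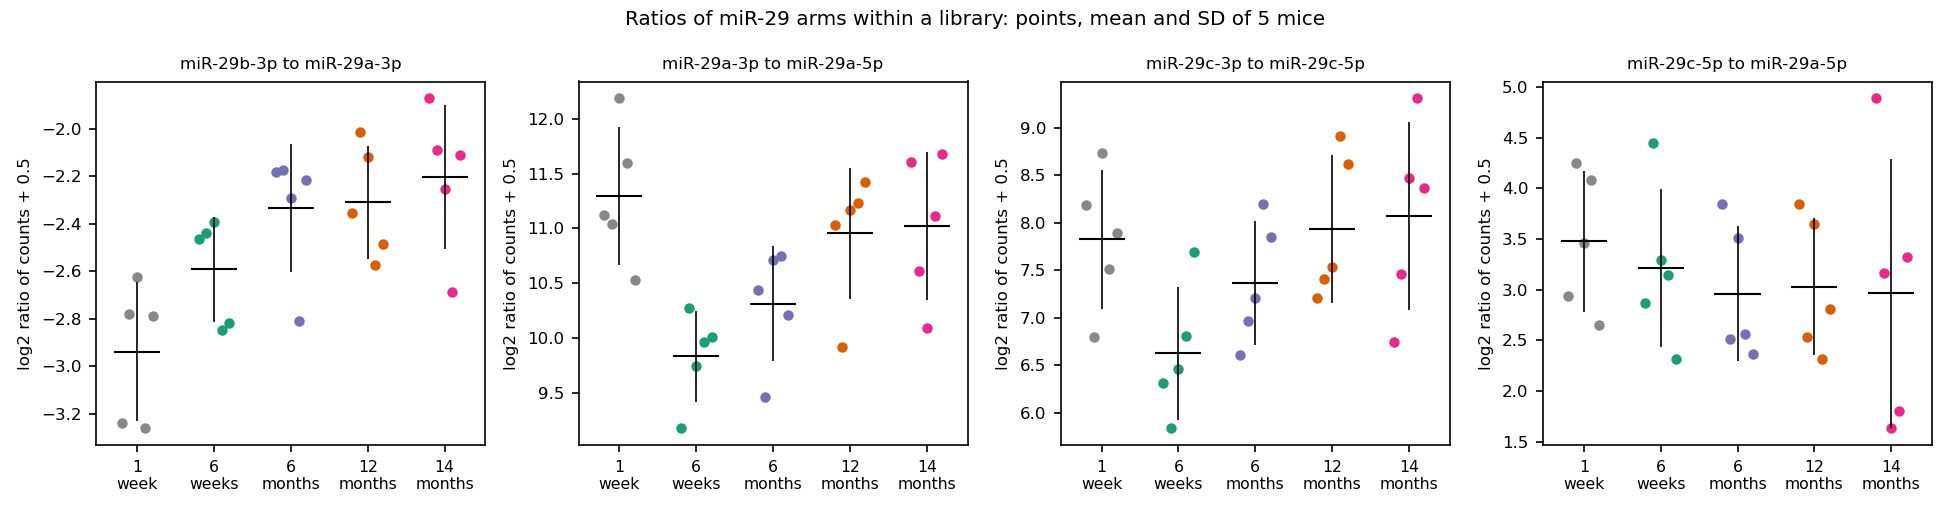
Log2 ratio of counts plus 0.5 for 4 pairs of miR-29 arms by age, with 1 point per library, the mean and the SD (n = 5). The ratios of miR-29a-3p and miR-29c-3p to their partner strands have their lowest means at 6 weeks (9.83 and 6.62). The 1-week value of the first depends on the 0.5 added. The 6-week libraries had the fewest counts, and the part of the library total in these ratios was not tested. The ratio of miR-29c-5p to miR-29a-5p overlaps between all ages.

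The members were also set beside 28 other miRNAs linked to liver fibrosis, stellate cells or hepatocytes, of which 27 were tested. At 6 weeks against 1 week 15 of the 27 rose and 5 fell (median log2 fold change 0.67). Over all 391 tested entries, 35% were called higher and 36.8% lower (median 0.12). The rises with the smallest adjusted p were miR-194-5p, a hepatocyte and epithelial miRNA (2.21 ± 0.12, adjusted p 2.28e-13), miR-27b-3p (2.02 ± 0.15, 1.39e-11) and its near-identical relative miR-27a-3p (1.93 ± 0.15, 2.91e-11). The falls were led by miR-335-5p (-2.03 ± 0.18, 4.08e-10), miR-152-3p (-1.14 ± 0.16, 6.55e-07) and miR-200b-3p, an epithelial miRNA (-1.43 ± 0.23, 5.87e-06). With library totals alone the list split into 9 higher and 10 lower. miR-29 thus differed in direction from 5 of these miRNAs with TMM, from 8 with RLE factors and from 10 with library totals.

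In adult life the same list gave few calls. Over all tested entries, 1.02% were called higher at 6 months, 3.84% at 12 months and 3.32% at 14 months, each against 6 weeks. At 6 months against 6 weeks 1 of 27 rose, miR-221-3p (0.70 ± 0.17, adjusted p 0.0255). At 12 months 4 rose and none fell, with a list median of 0.30. They were led by miR-155-5p, a miRNA of activated leukocytes (2.46 ± 0.52, adjusted p 0.0061), miR-152-3p (0.63 ± 0.16, 0.0153) and miR-145a-5p, a smooth muscle and stellate marker (0.67 ± 0.17, 0.0165). At 14 months 4 rose and none fell, with a list median of 0.37: miR-152-3p (0.60 ± 0.16), miR-194-5p (0.45 ± 0.12) and miR-221-3p (0.61 ± 0.16), each with an adjusted p of 0.0329, and miR-222-3p. With library totals alone no member of the list was called higher at 6 or 14 months, 1 was lower at 14 months, and 2 were higher and 2 lower at 12 months. The marker lists overlap this list. Called higher at 12 months against 6 weeks were 2 of 5 leukocyte markers (miR-155-5p, already named, and miR-142a-5p) and 2 of 7 stellate and smooth muscle markers (miR-145a-5p, already named, and miR-145a-3p). At 14 months 1 of 5 hepatocyte markers was called higher, the miR-194-5p already named. Their part in the miR-29 values was not tested. Summed leukocyte markers were 2284 to 5097 CPM at 12 months and 2213 to 4098 CPM at 14 months, and summed stellate and smooth muscle markers 8142 to 11442 and 8744 to 10807 CPM.

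The miRNAs whose level over libraries was most like that of the family were found by Pearson r of log2 CPM, among names with a mean of at least 50 CPM. Over all 25 libraries the closest to miR-29b-3p were miR-194-5p (r = 0.964), miR-221-3p (0.962), miR-137-3p (0.960), miR-30c-5p (0.953) and let-7c-5p (0.951). The closest to miR-29a-3p were miR-137-3p (0.968), miR-26a-5p (0.959), miR-194-5p (0.957), let-7a-5p (0.955) and let-7c-5p (0.952). For miR-29c-5p they were miR-194-5p (0.968), miR-23b-3p (0.964), miR-23a-3p (0.963), miR-27b-3p (0.959) and miR-203-3p (0.957). The step between 1 week and 6 weeks is part of all these values, which are descriptions.

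Over the 20 adult libraries the lists differed by arm. miR-101c (0.912), miR-152-3p (0.868), miR-137-3p (0.854), miR-103-3p (0.845) and miR-107-3p (0.845) were closest to miR-29b-3p. For miR-29a-3p they were miR-137-3p (0.935), miR-103-3p (0.888), miR-107-3p (0.888), miR-152-3p (0.884) and miR-101b-3p (0.853). The rows of miR-103-3p and miR-107-3p held nearly the same levels, with a mean of 182.5 CPM for each at 6 weeks. In both lists they are therefore a single neighbour. miR-29c-5p had another set of neighbours: miR-125b-5p (0.820), miR-574-3p (0.763), miR-125a-5p (0.672), miR-23b-3p (0.631) and miR-23a-3p (0.630). The rows of miR-23b-3p and miR-23a-3p also held similar levels, with means of 3812 and 3738 CPM at 6 weeks. They are not taken as separate neighbours, here or over 25 libraries. miR-29a-3p and miR-29b-3p stayed close to each other (0.991 over 25 and 0.934 over 20 libraries). miR-29a-3p and miR-29c-5p had 0.899 over 25 libraries and -0.416 over the 20 adult ones, and the partner strands miR-29a-5p and miR-29c-5p had 0.881 and -0.652. The adult libraries share depth as well as age, and the values of miR-29a-5p rest on 2 to 40 counts per library.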

How the data were processed

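Small RNA of liver vesicles was sequenced from 25 mice. The authors deposited raw counts per miRNA entry in 1 table, with a length column that served only to compare sequence lengths. The submitters' processing notes name Bowtie, edgeR and mm10. Versions, annotation release, allowed mismatches and whether reads or molecular identifiers were counted are not given in the sources used here. Of 1493 entries, 398 are marked unconservative (0.0836% of counts).

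Counts were fitted in edgeR 4.0.16 (R 4.3.3) with TMM factors, filterByExpr by age (391 entries kept, 1102 not), 1 mean per age over all 25 libraries and a robust quasi-likelihood fit, and tested with Benjamini-Hochberg adjustment over all entries. The SE is the log2 fold change divided by the root of its F statistic. The fit was also run on counts simulated with changes at 1 week alone. Those counts lacked the adult relation to library total, and the outcome is not given here. Ratios used scipy 1.17.1. Sequences and coordinates are from RefSeq (GRCm38.p6, the assembly that mm10 names) and GENCODE M21.

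The members, comparisons, marker lists and the list of fibrosis-linked miRNAs were chosen with earlier results of these data known. Of that list, up to 3 per direction with the smallest adjusted p are named, and the 5 closest miRNAs for each of 3 arms; miR-222-3p was named after its value was seen, to complete a count. Alternatives were RLE factors, library totals, no filter, 10 counts in 5 libraries, DESeq2 1.42.0, a fit without robust, a table without miR-29c-3p, library total as a covariate, only the ages compared, other pseudocounts (1 and 5) and leaving out each mouse. Leaving out each mouse from the pooled proportions of 5p to 3p counts was chosen after seeing the data.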

Additional observations from a re-analysis of the deposited data

Results flagged for a closer look

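Within an age, 3 of 30 groups of 5 libraries had a highest library set apart from the rest by more than Dixon's 95% critical value, and chance alone sets apart about 1 in 20 such groups. At 6 weeks, mouse 10 held 11377 CPM of miR-29a-3p, the next library 6605 CPM, and the gap was 0.754 of the group's range. The miR-29c-3p row gave 11411 CPM against 6619 CPM for the same mouse (0.756), as its counts are nearly those of miR-29a-3p. Mouse 10 also had the largest library of its age, 1738208 counts. At 6 weeks, mouse 6 held 6.98 CPM of miR-29b-2-5p against 2.97 CPM in the next library (0.749), which rests on 5 counts.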

How the results depend on the processing

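Of 781 recomputed values of single members, 767 stayed on their side of the threshold, 10 lost and 4 gained a call, and no called value changed sign. miR-29b-3p kept its calls at 12 and 14 months against 6 weeks in all 19 alternatives of each. No paired analysis was possible because mouse numbers are unique to an age. Low counts limit the 5p arms, and the 3p rows of miR-29a and miR-29c hold nearly the same counts. The cause of the changes below was not tested.

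The number of members called at 6 months against 6 weeks was 3 with only the ages compared and 0 to 3 on leaving out each mouse. At 12 months it was 1 with no filter and 1 with the total as covariate, and at 14 months 1 with the covariate. In the F test over adult ages it was 1 with no filter, 1 with the covariate and 1 to 3 without each mouse (1 without mouse 6); miR-29a-3p and miR-29c-3p were the ones lost. For all entries at 6 months against 6 weeks (7 called), calls were 3 with library totals, 4 with 10 counts in 5 libraries, 3 with the covariate, and 1 to 9 without each mouse. At 12 months (22 called) they were 40 with DESeq2, 8 with the covariate and 36 with only the ages compared. At 14 months (15 called) they were 24 with no filter, 7 with the covariate, 28 with only the ages compared and 8 to 22 without each mouse. The F test over adult ages (10 called) gave 25 with no filter, 5 with the covariate and 9 to 22 without each mouse. For 12 against 6 months no filter gave 3, and for 14 against 6 months the covariate gave 1. Of the fibrosis-linked list at 6 weeks against 1 week, 9 were higher and 10 lower with library totals, and 8 lower with RLE factors.

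For ratios, a pseudocount of 1 gave -0.873 and 1.25 for miR-29a-3p to miR-29a-5p in the 2 comparisons (adjusted exact p 0.0476 each), and 5 gave 1.54 at 14 months against 6 weeks (0.0317), with 1.02 to 1.42 without each mouse. With 5 added, miR-29b-3p to miR-29b-2-5p gave 1.59 and 1.71 (adjusted exact p 0.0476 and 0.0317). An added 5 is large beside the counts of miR-29a-5p and miR-29b-2-5p, so such ratios also vary with the library total. At 6 weeks against 1 week, miR-29c-5p to miR-29a-5p reversed to 0.267 with 1 added and to 1.08 with 5 added. Without each mouse, miR-29a-3p to miR-29c-3p ran from -0.00648 to -0.00405 and miR-29b-3p to miR-29a-3p from 0.307 to 0.511 at 14 months. The correlation with library total passed for miR-29a-5p without the 2 farthest libraries (0.507, adjusted permutation p 0.0477) and for miR-29c-5p with library totals alone (-0.594, 0.00877).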
